A study of Homo sapiens with 4 samples.

Results

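The 10 genes described here carry out the uptake, storage, release, export and sensing of cellular iron: TFRC, TFR2, STEAP3 and SLC11A2 for uptake, FTH1, FTL and NCOA4 for storage and release, SLC40A1 for export, and ACO1 and IREB2 as sensors. The members were given as a list of gene names, and all 10 were found among the 19974 protein-coding genes that RefSeq places on chromosomes 1 to 22 and X of GRCh38.p14. A peak was assigned to a gene when its midpoint lay inside the gene or within 50 kb of either end. The peaks came from ChIP-seq, which sequences DNA recovered with a protein by chromatin immunoprecipitation, in cells fixed with 1% formaldehyde for 10 min. The cells were DU145, a line established from a human prostate cancer. One library was made with Flag-tagged ATOH8 and one with Myc-tagged TCF3, each beside an input library, and the labels do not say how the tagged proteins were introduced. With 1 library per group there are no replicates, so no value below has an error and no test was made. The title of the series concerns ferroptosis and repression of SCD by ATOH8; the labels do not single out iron genes.

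Iron enters most cells bound to transferrin, which the transferrin receptor carries into endosomes, where a STEAP reductase reduces the iron and SLC11A2 moves it to the cytosol. Iron that is not used is stored inside ferritin shells and set free when NCOA4 takes ferritin to the lysosome, and ferroportin, the product of SLC40A1, is the exporter. The iron regulatory proteins encoded by ACO1 and IREB2 sense iron and bind RNA hairpins in messages of this pathway, so much of its control is known to act after transcription. Free iron feeds the lipid peroxidation that drives ferroptosis. ATOH8 and TCF3 are basic helix-loop-helix (bHLH) proteins, a class that binds DNA as dimers at the E-box, CANNTG.

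Of the 8 members with a listed start site, STEAP3, ACO1 and SLC40A1 had one covered by a peak. Of the 22156 listed starts of protein-coding genes, 2490 lay inside an ATOH8 peak and 2314 inside a TCF3 peak. The 250 bases before each of these starts are printed because the peaks lie over them. FTH1 and TFR2 had no listed start site, so the ATOH8 peak across an end of FTH1 could not be placed against its start. The window of TFRC, whose start carried no listed peak, is printed beside them as an example. Other starts without a listed peak varied, with no E-box in the same bases at FTL and 2 at the NCOA4 start at 46030623. Sequences are from RefSeq (GRCh38.p14), 5′ to 3′, with every E-box in capitals.
STEAP3, chr2:119223584-119223833, plus strand: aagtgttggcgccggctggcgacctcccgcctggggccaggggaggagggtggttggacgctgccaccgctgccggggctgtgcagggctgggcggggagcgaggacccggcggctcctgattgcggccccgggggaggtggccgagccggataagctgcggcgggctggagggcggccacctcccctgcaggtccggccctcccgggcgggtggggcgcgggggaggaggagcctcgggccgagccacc
ACO1, chr9:32384393-32384642, plus strand: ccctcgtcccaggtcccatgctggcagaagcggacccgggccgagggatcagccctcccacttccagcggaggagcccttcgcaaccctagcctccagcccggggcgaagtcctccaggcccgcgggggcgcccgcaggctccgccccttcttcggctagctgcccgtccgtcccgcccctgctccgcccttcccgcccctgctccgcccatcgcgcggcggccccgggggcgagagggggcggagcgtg
SLC40A1, chr2:189580787-189581036, minus strand: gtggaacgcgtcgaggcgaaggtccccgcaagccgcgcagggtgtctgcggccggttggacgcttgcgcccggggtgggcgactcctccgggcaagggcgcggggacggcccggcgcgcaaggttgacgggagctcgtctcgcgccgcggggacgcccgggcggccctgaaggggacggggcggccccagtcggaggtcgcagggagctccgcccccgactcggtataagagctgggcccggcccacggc
TFRC, chr3:196082091-196082340, minus strand: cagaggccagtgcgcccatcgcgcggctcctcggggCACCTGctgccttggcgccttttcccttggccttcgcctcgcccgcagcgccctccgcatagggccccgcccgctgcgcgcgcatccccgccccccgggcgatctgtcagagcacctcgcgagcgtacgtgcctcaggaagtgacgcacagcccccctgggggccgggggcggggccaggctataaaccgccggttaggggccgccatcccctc
The first 3 of these windows held no E-box, and the TFRC window held 1, CACCTG. At STEAP3 and ACO1 the E-box CAGCTG followed the start instead, and these sites are printed with the bases around them.
STEAP3, chr2:119223840-119223869, plus strand: gccgcggaccttCAGCTGccgcggtcgctc
ACO1, chr9:32384638-32384667, plus strand: gcgtggaggcggCAGCTGgaaccgcgcagc

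The ATOH8 list held 4997 peaks and the TCF3 list 11390. Each peak had a score, the authors' own value, between 51 and 8846 for ATOH8 (median 84) and between 35 and 19871 for TCF3 (median 61). Scores were compared only within a list. Read depth is unknown, and each list had gaps. Beside lines that held no peak, the ATOH8 scores jumped from 996 to 356 and from 326 to 280, and the TCF3 scores from 887 to 280. Smaller steps beside such lines were 83 to 81 for ATOH8 and 129 to 120 and 41 to 38 for TCF3. The ATOH8 scores also jumped from 232 to 189 with no such line there. Any peaks with scores inside these gaps were not analysed here. A gene without a listed peak is therefore not shown to be unbound. A peak list holds no expression values, so the cell line could not be checked against its markers.

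Within 50 kb, 6 of the 10 iron genes had an ATOH8 peak, against 43.6% of all protein-coding genes, and 4 of 10 had a TCF3 peak, against 53.7%. One gene, TFR2, had peaks of both factors, against 28.1% of all genes, and IREB2 had neither, against 30.8%. The 6 genes with ATOH8 were TFR2, FTH1, FTL, NCOA4, STEAP3 and ACO1, and the 4 with TCF3 were TFRC, TFR2, SLC40A1 and SLC11A2. ATOH8 alone was listed at 5 of 10 members, against 15.5% of all genes, and TCF3 alone at 3, against 25.6%. By role, ATOH8 alone was listed at the 3 storage and release genes, though at FTL the peak lay 11.9 kb away inside another gene and within 5 kb the count was 2 of 3. TCF3 alone was listed at the 1 exporter. Of the 4 uptake genes, 1 had ATOH8 alone, 2 had TCF3 alone and 1 had both, and of the 2 sensors 1 had ATOH8 alone and 1 had neither. With so few genes, 1 gene is 10 percentage points, and these counts are descriptions of the 2 lists.

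**Figure D1:**
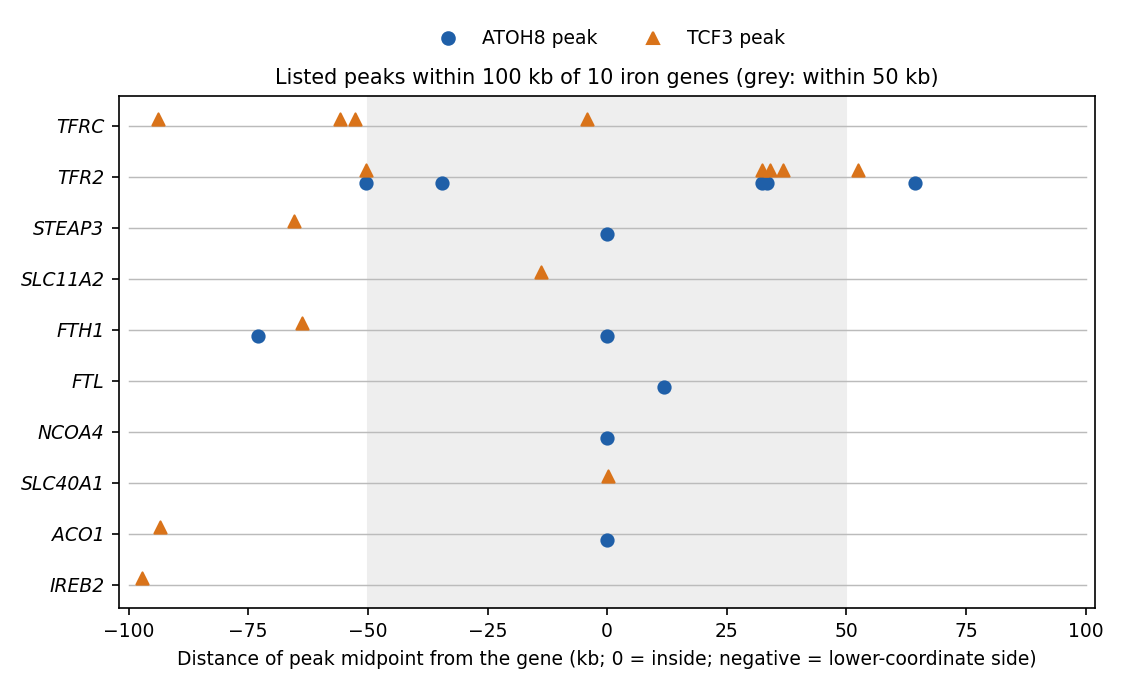
Distance in kb from each of the 10 iron genes to the midpoint of every listed ATOH8 peak (circles) and TCF3 peak (triangles) within 100 kb, with 0 for a midpoint inside the gene and negative values on the lower-coordinate side. At FTH1, NCOA4, STEAP3 and ACO1 an ATOH8 peak lies at 0, SLC40A1 has a TCF3 peak beside it, and TFR2 is the member with both factors in the grey 50 kb zone.

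These genes held or neighboured 14 peaks in all, 8 of ATOH8 and 6 of TCF3. The member was the nearest protein-coding gene for 6 of the 14, and another gene was nearer for 8. The midpoint lay inside a member for 4 ATOH8 peaks and for none of the TCF3 peaks, while 17.4% and 26% of all protein-coding genes held an ATOH8 and a TCF3 midpoint. Within 5 kb the counts were 4 of 10 for ATOH8 (FTH1, NCOA4, STEAP3 and ACO1), against 25.1% of all genes, and 2 of 10 for TCF3 (TFRC and SLC40A1), against 32.9%. No member had both factors within 5 kb, where 11.8% of all genes did, and 4 had neither (TFR2, FTL, SLC11A2 and IREB2), against 53.9%.

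Other windows moved these counts. Within 1 kb of a gene end, ATOH8 peaks lay at 3 of 10 members (FTH1, STEAP3 and ACO1), against 17.6% of all genes, and a TCF3 peak lay at 1, SLC40A1, against 20.3%. Within 20 kb the ATOH8 count was 5, FTL being added, against 33%, and the TCF3 count 3, SLC11A2 being added, against 42%. None had both, against 18.1%, and TFR2 and IREB2 had neither, against 43.1%. Within 100 kb the ATOH8 count was 6, against 55.5%, and the TCF3 count rose to 8, against 65.9%, since peaks near FTH1, STEAP3, IREB2 and ACO1 came in. Both factors were then listed at 4, against 41.6%, and no member had neither, against 20.2%.

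**Figure D2:**
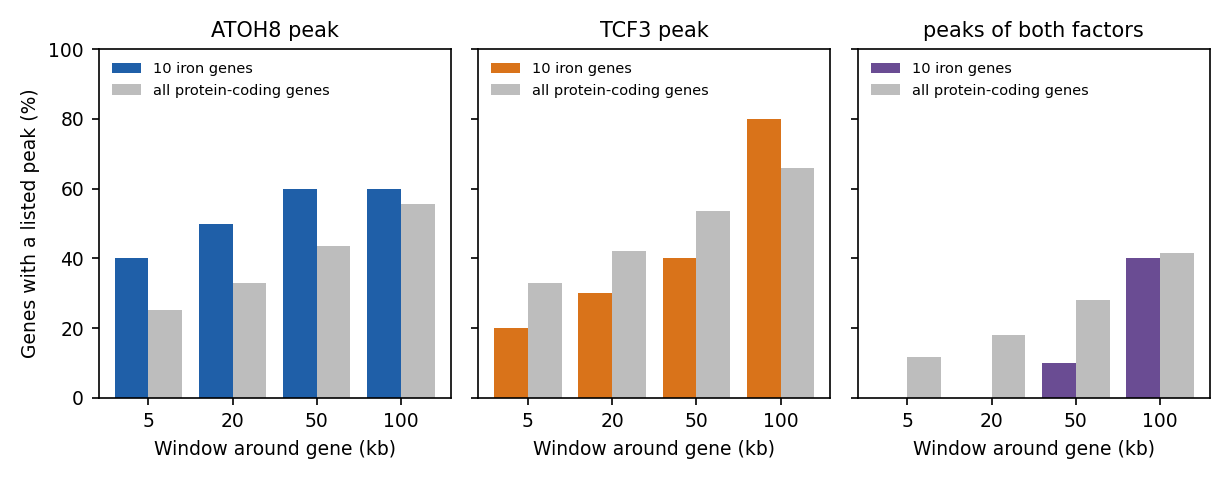
Share of genes (%, from 0) with a listed peak for windows of 5, 20, 50 and 100 kb around the gene, for the 10 iron genes (coloured) and for all 19974 protein-coding genes (grey). The coloured ATOH8 bars stand above the grey ones in each window, the TCF3 bars stand below them up to 50 kb and above at 100 kb, and at 5 and 20 kb no member had both factors.

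Among the uptake genes, TFRC encodes the main transferrin receptor. It lies at chromosome 3, 196049284 to 196082090, on the minus strand. A single TCF3 peak, from 196044415 to 196045657, had its midpoint 4248 bp beyond the lower-coordinate end, which is the far end from the start site, 37054 bp away. Its score of 92 stood above 75.7% of the TCF3 list (rank 2750), and the midpoint fell inside the pseudogene ARL8BP1. TFRC was the nearest protein-coding gene. No ATOH8 peak was listed nearer than 134 kb, where the score was 64. The next TCF3 peaks on the same side, with scores of 52 and 36, had midpoints 52.7 and 55.9 kb from the gene and so fell just outside the window. TFRC was thus a gene with TCF3 alone, listed 4248 bp beyond its far end and not at its start.

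TFR2 encodes the second transferrin receptor, known from liver and erythroid cells as part of iron sensing. It lies at chromosome 7, 100620420 to 100641552, in a dense stretch with 8 other protein-coding genes in its window. It had 6 of the 14 peaks, 3 of each factor, and none was nearer than 32.3 kb. The ATOH8 peaks had scores of 57, 72 and 181, and the TCF3 peaks 85, 66 and 44. All 6 midpoints lay inside other genes. The ATOH8 peak with score 181, from 100585639 to 100586225, was 197 bp after the start site of LRCH4, a leucine-rich repeat gene, and ranked 294, above 94.0% of its list. Its score is close to the gap between 189 and 232 in the ATOH8 list. The other 5 peaks had midpoints inside GNB2, which encodes a G protein beta subunit, 92.5 to 4606.5 bp after its start.

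The only bases shared by an ATOH8 and a TCF3 peak within 50 kb of any member were these GNB2 peaks. A pair with scores 57 (ATOH8) and 85 (TCF3) shared 287 bp, and a pair with scores 72 and 66 shared 625 bp. Among the member peaks 2 of 8 ATOH8 and 2 of 6 TCF3 peaks were shared, against 28.8% of all ATOH8 and 12.5% of all TCF3 peaks. A further pair (72 and 61) sharing 831 bp lay just outside the window, with midpoints 50.36 and 50.37 kb from TFR2. The peaks counted for TFR2 thus sat at the starts and bodies of its neighbours, and whether any of them acts on TFR2 was not tested.

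**Figure D3:**
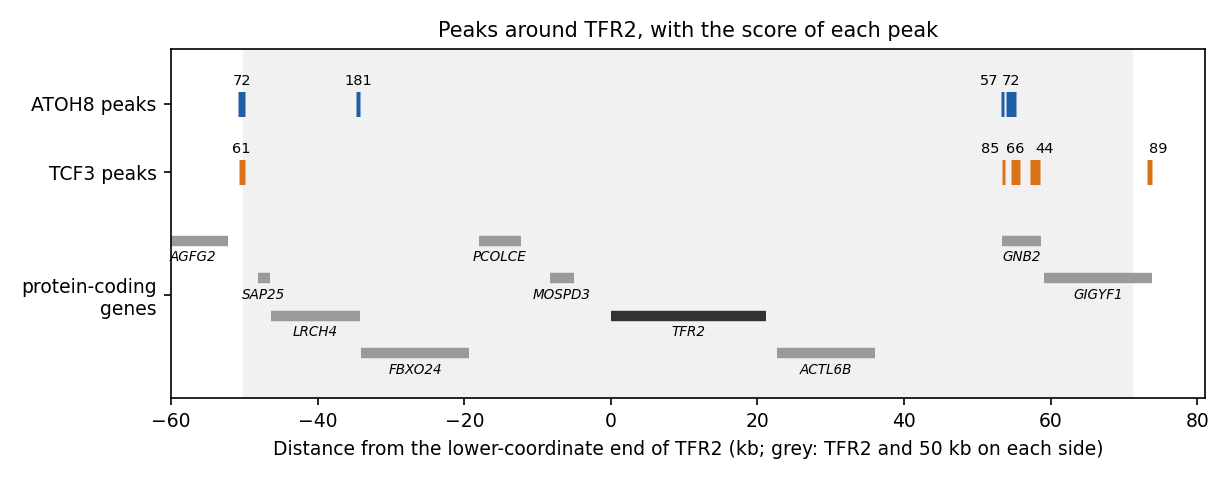
Peaks of ATOH8 (upper row) and TCF3 (lower row) around TFR2, each labelled with its score, above the bodies of protein-coding genes, by distance in kb from the lower-coordinate end of TFR2. No peak touches TFR2 (dark bar), the ATOH8 peak with score 181 stands at the edge of LRCH4, and 5 peaks of both factors gather over GNB2.

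STEAP3 encodes the endosomal reductase that converts ferric to ferrous iron after transferrin uptake. It lies on the plus strand at chromosome 2, 119223834 to 119265652. One ATOH8 peak, from 119223672 to 119224190, reached from 162 bp before the start site to 356 bp after it, with its midpoint 97 bp inside the gene. Its score of 71 was under the list's median of 84 and above 36.6% of the list (rank 3153). The nearest TCF3 peak, with score 61, lay 65.5 kb away inside C1QL2. STEAP3 therefore had a peak of ATOH8 at its start and none of TCF3 in the window.

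SLC11A2 encodes DMT1, the ferrous iron transporter of endosomes and of the gut surface. It lies on the minus strand at chromosome 12, 50952263 to 51028886, with 4 start sites in the table. The single peak in its window was of TCF3, from 50938105 to 50938637 and with its midpoint inside HIGD1C, 13.9 kb beyond the far end of SLC11A2. Its score of 36 was 1 above the lowest of the list and was shared by 1542 peaks. The nearest ATOH8 peak (score 103) was 188 kb away. Of the genes with a TCF3 peak, SLC11A2 had the peak with the lowest score.

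For storage, FTH1 encodes the ferritin heavy chain, which oxidises iron as it enters the shell. It lies at chromosome 11, 61964285 to 61967634. No strand or start site was listed for it, so neither end could be called its start or its far end. One ATOH8 peak, from 61967205 to 61968018, crossed its higher-coordinate end, with the midpoint 22.5 bp inside the gene. Its score of 77 was above 44.0% of the ATOH8 list (rank 2751), and the midpoint also fell inside the long non-coding RNA gene LOC399900. The nearest TCF3 peak (67) was 63.8 kb away, inside RAB3IL1. Another ATOH8 peak, with score 129, lay 73.0 kb away at the start of FADS3, outside the window.

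FTL encodes the ferritin light chain, which promotes formation of the iron core. It lies on the plus strand at chromosome 19, 48965309 to 48966879. It had no peak at its start: the single ATOH8 peak in the window, from 48978553 to 48979017, lay 11.9 kb beyond the gene, inside GYS1, the muscle glycogen synthase gene. Its score of 86 was near the median of the list (rank 2381). The nearest TCF3 peak (36) was 723 kb away, the largest distance between a member and its nearest TCF3 peak. The 2 ferritin genes thus differed, with an ATOH8 peak across an end of FTH1 and none within 5 kb of FTL.

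NCOA4 encodes the receptor that carries ferritin to the lysosome, the step called ferritinophagy that releases stored iron. It lies on the minus strand at chromosome 10, 46005088 to 46030623. An ATOH8 peak, from 46022662 to 46023402, lay inside it, 7591 bp after the start at its higher-coordinate end (46030623) and 3033 bp before a second start at 46019999. Its score of 123 was above 76.6% of the list (rank 1154). The nearest TCF3 peak (89) was 158 kb away. The treatment of reads that map to more than 1 place is not stated by the labels, and RefSeq lists NCOA4 pseudogenes elsewhere in the genome.

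SLC40A1, the gene of the exporter ferroportin, lies on the minus strand at chromosome 2, 189560590 to 189580786. It had 1 TCF3 peak, from 189580651 to 189581206, which covered the start site, reaching from 420 bp before it to 135 bp after it. The midpoint was 142.5 bp before the start. The score of 79 was above 64.2% of the TCF3 list (rank 3590). The nearest ATOH8 peak (253) was 599.9 kb away. The exporter was the 1 member whose start site lay under a TCF3 peak, as did 2314 of the 22156 listed starts of protein-coding genes.

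ACO1 encodes iron regulatory protein 1, which is an aconitase when it holds an iron-sulphur cluster and binds RNA when it does not. It lies on the plus strand at chromosome 9, 32384643 to 32454769. An ATOH8 peak, from 32384436 to 32385028, reached from 207 bp before the start to 385 bp after it, with its midpoint 89 bp inside. Its score of 145 was above 85.0% of the list (rank 730). This was the best rank among the ATOH8 peaks that lay inside a member. The nearest TCF3 peak (52) was 93.3 kb away.

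IREB2 encodes iron regulatory protein 2, the relative of ACO1 that is degraded when iron is plentiful. It lies on the plus strand at chromosome 15, 78437431 to 78501453. It was the member with no peak of either factor within 50 kb. Its nearest ATOH8 peak (75) was 266 kb away, and its nearest TCF3 peak (43), beside CRABP1, was 97.2 kb away. Of the 2 sensor genes, one thus had an ATOH8 peak over its start and the other had none listed in its window.

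**Figure D4:**
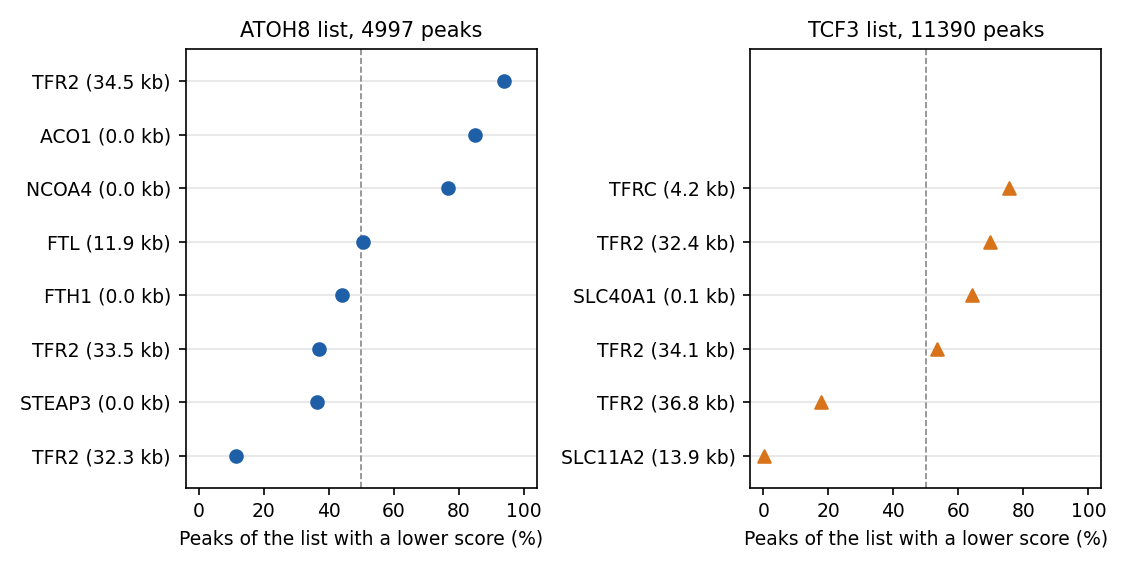
Share of each list (%) with a lower score than each peak within 50 kb of an iron gene, labelled with the gene and the distance of the midpoint in kb. ATOH8 peaks range from 11.5% (a peak at TFR2) to 94.0% (another peak at TFR2), with those inside STEAP3, FTH1, NCOA4 and ACO1 in between, and TCF3 peaks range from near 0 at SLC11A2 to 75.7% at TFRC.

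The member peaks stood above 11.5 to 94.0% of the ATOH8 list and above near 0 to 75.7% of the TCF3 list. The 8 ATOH8 peaks had scores of 57 to 181 with a median of 81.5, beside a list median of 84, and 4 of them were above the list median. The 6 TCF3 peaks had scores of 36 to 92 with a median of 72.5, beside 61, and 4 were above it. Widths ran from 439 to 1310 bp for ATOH8 and from 465 to 1369 bp for TCF3, within ranges of 284 to 4511 and 355 to 10674 bp in the lists. The best rank of a member peak was 294 of 4997 for ATOH8 and 2750 of 11390 for TCF3.

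The sequences printed above were compared with other start sites. Windows of 250 bases before to 50 after a start were searched for CANNTG, which reads the same on both strands, in the 22156 windows that the table holds for protein-coding genes. The table held 13 windows for 8 members, FTH1 and TFR2 having none.

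An E-box was in 65.1% of all windows and in 64.5% of the 2490 windows whose start lay inside an ATOH8 peak. It was in 54.3% of the 2314 windows whose start lay inside a TCF3 peak. No E-box in the 250 bases before the start was seen at STEAP3, ACO1 and SLC40A1, and 41.9% of all windows had none there. The shares were 43.9% for windows under ATOH8 peaks and 51.7% for those under TCF3 peaks. CAGCTG in the 50 bases after the start, which began at base 19 of STEAP3 and base 8 of ACO1 counted from 1 at the start site, was in 4.67% of all windows and 7.43% of those under ATOH8 peaks. The SLC40A1 window, under a TCF3 peak, held no E-box at all. The windows of STEAP3, SLC40A1 and ACO1 were 78.7, 77.7 and 76.3% G and C, beside a median of 62.3% for all windows and 71.3 and 72.3% for those under ATOH8 and TCF3 peaks. The part of base composition in these peaks was not tested.

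**Figure D5:**
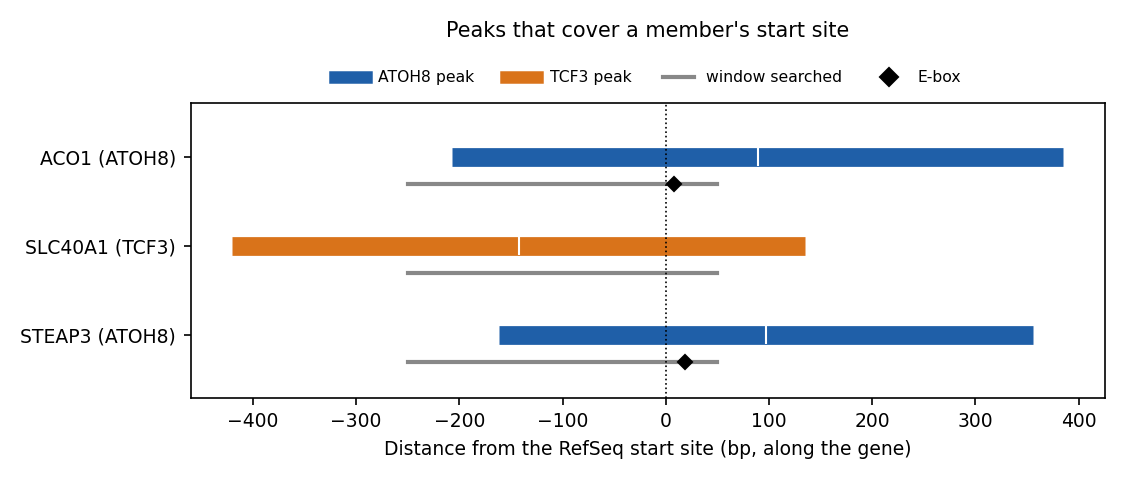
Extent of the 3 peaks that cover a listed start site of a member, in bp along the gene with the start at 0, the white tick marking the midpoint. FTH1 and TFR2 had no listed start site and could not be placed here. The grey line is the window searched and the diamonds are E-boxes: 1 each just after the start of ACO1 and STEAP3, inside the ATOH8 peaks, and none in the SLC40A1 window.

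Among the members without a peak at the start, TFRC held 1 E-box (CACCTG, at base -214 from the start) and FTL held none. NCOA4 held 2 at its first start and 4 at its second start, which was the highest number among the members' windows. IREB2 held none at one start and 1 (CAGTTG) at the other, and SLC11A2 held none at 2 of its 4 starts. At the SLC11A2 start at 51028242, which lay under no peak, CAGCTG began at base 30. The word CAGCTG just after a start was thus not confined to the members with an ATOH8 peak there. The antioxidant response core TGACNNNGC, searched on both strands, was found in 1 member window, at the second start of NCOA4, and in 13.8% of all windows. The hypoxia core ACGTG, on both strands, was found at TFRC and FTL, and in 23.1% of all windows. Such matches are letters in a window, and no binding is read from them.

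A wider list of 35 other genes of iron handling was counted in the same way. Within 5 kb, 9 of 35 had an ATOH8 peak, beside 25.1% of all genes, 11 of 35 a TCF3 peak, beside 32.9%, and 3 had both, beside 11.8%. Within 50 kb the counts were 14 and 19 of 35, beside 43.6 and 53.7%, with both factors at 5 of 35, beside 28.1%. The 4 genes with the highest ATOH8 scores within 5 kb were SLC25A28 (116), which encodes a mitochondrial iron importer, FECH (98), which makes heme, SLC39A14 (72), a zinc and iron transporter gene, and PCBP1 (72), which encodes an iron chaperone. For TCF3 they were FTMT (190), the mitochondrial ferritin gene, SLC25A37 (131), the mitoferrin gene of erythroid cells, STEAP2 (120) and FLVCR1 (95). STEAP2 is another metalloreductase gene, and FLVCR1 encodes a heme exporter. Whether reads from FTH1 or its pseudogenes contributed to the FTMT peak was not tested.

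By group, ATOH8 peaks lay within 5 kb of 3 of 5 genes for chaperones and turnover (PCBP1, PCBP2 and FBXL5) and TCF3 peaks at 1, FTMT. The carriers, reductases, oxidases and transporters had ATOH8 peaks at 2 of 13 and TCF3 peaks at 5, and the genes of mitochondrial iron use at 3 and 4 of 7. The 6 genes of hepcidin and its regulation had an ATOH8 peak at 1, NEO1, and no TCF3 peak within 5 kb. The 4 heme genes had none of ATOH8 and 1 of TCF3. The shares of all genes within 5 kb were 25.1 and 32.9%. Within 50 kb, ATOH8 and TCF3 peaks lay at 3 and 5 of the 6 hepcidin genes and at 2 and 2 of the heme genes. They lay at 3 and 6 of the 13 carriers and their group, and at 3 and 2 of the 5 chaperone and turnover genes. For mitochondrial iron use the counts were unchanged. The shares of all genes within 50 kb were 43.6 and 53.7%. At FECH and SLC39A14 the highest ATOH8 and TCF3 peaks shared bases, which no pair within 5 kb of the 10 members did. The FECH peaks, with scores 98 and 61, had midpoints 61 and 297 bp after its start.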

How the data were processed

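Peaks from 2 ChIP-seq libraries of DU145 cells were analysed, 1 for ATOH8 (Flag tag) and 1 for TCF3 (Myc tag); their input libraries were not. Each deposited list gives a chromosome, start, end and the authors' score per peak. Per the submitters' processing notes the build is hg38; not given in the sources used here are the aligner, the caller and threshold of the peaks, what the score means and whether starts count from 0 or 1. Lines without a peak (3 and 5) were dropped.

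Genes and start sites came from RefSeq GRCh38.p14, whose chromosomes share hg38 coordinates; exons and UTRs were not used. Distances run from peak midpoints. Ranks are over the whole list, equal scores sharing the best rank. Sharing meant at least 1 bp. The named genes are all 10 members, genes holding or nearest to their peaks, and the 4 highest-scoring other iron genes per factor within 5 kb. Members and gene lists were chosen with earlier results of these data known, so counts are set beside all protein-coding genes without tests. The functions were tested on simulated data. Alternatives changed the window, the peaks kept and the sharing rule. Python 3.11.15, numpy 2.4.6, pandas 2.3.3 and matplotlib 3.10.9 were used.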

Additional observations from a re-analysis of the deposited data

How the results depend on the processing

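The ATOH8 count of 6 genes fell to 3 within 5 kb of a start site (8 members had one in the table; 21.5% of all genes with one) and to 3 within 1 kb of a gene end (17.6%), an alternative added after seeing the data. The TCF3 count of 4 was 2 within 5 kb, 8 within 100 kb, 1 within 5 kb of a start site (25.7% of all genes with one) and 1 within 1 kb of a gene end (20.3%). The count of 1 gene with both factors was 0 within 5 kb, 20 kb, 5 kb of a start site (8.25% of all genes with one) and 1 kb of a gene end (6.11% of all genes), and 4 within 100 kb (TFR2, FTH1, STEAP3 and ACO1). The 2 shared pairs became 1 when 50% of each peak had to be shared, 1 when midpoints had to lie within 200 bp, and 0 within 5 kb or among the higher-ranked 50% of peaks. The other alternatives (any base of the peak, no top 1% of scores, equal numbers of peaks) left each gene count within 1.5 times its value. So did the higher-ranked 50% of peaks, but the shares of all genes also fell. With equal numbers of peaks the TCF3 count was 3, against 30.4%, and the count with both factors 1, against 16.5%. Among the higher-ranked 50% of peaks the counts were 4 for ATOH8 (27.1% of all genes), 3 for TCF3 (33.9%) and 1 for both (12.1%). Narrower windows hold fewer peaks by construction. No paired analysis was possible because each group has 1 library. Depth is unknown, and the unlisted score ranges limit every absence.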

Other observations

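Copies of the ferritin genes elsewhere in the genome were examined after the peaks at FTH1 had been seen. RefSeq lists 27 FTH1 and 20 FTL pseudogenes on these chromosomes. A TCF3 peak had its midpoint inside 8 of the 27 FTH1 pseudogenes, while 7.11% of all 16664 pseudogenes held one, and inside 0 of the 20 FTL pseudogenes. No ATOH8 midpoint lay inside any of the 47, beside 0.648% of all pseudogenes. FTH1 itself, the parent gene, had an ATOH8 peak across its higher-coordinate end and no TCF3 peak within 50 kb. Whether that end holds its start was not determined.

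The 8 peaks had scores of 52 to 202 with a median of 150, and 6 were above the TCF3 list's median of 61. The scores were 202 at FTH1P7, 201 at FTH1P6, 200 at FTH1P5, 170 at FTH1P10, 130 at FTH1P11, 78 at FTH1P4, 59 at FTH1P16 and 52 at FTH1P23. All but the last 3 were higher than the score of 92 at TFRC, which was the highest TCF3 score within 50 kb of a member. The FTH1P7 peak ranked 324 in its list. In 6 of the copies the midpoint lay 129 to 260 bp from the higher-coordinate end of copies 908 to 922 bp long (FTH1P4, FTH1P5, FTH1P7, FTH1P10, FTH1P11 and FTH1P16). The strand of the copies was not used, so these distances give no place along the ferritin sequence. The peaks at FTH1P4, FTH1P16 and FTH1P23 lay inside the protein-coding genes RAB7A, RSF1 and GXYLT2.

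FTH1 was not alone among families of pseudogenes. Of 83 families with at least 20 numbered copies, those of KRT8 (23 of 52), RPS2 (20 of 55) and KRT18 (20 of 67) had a larger share with a TCF3 midpoint inside than those of FTH1, with 29.6%, which took place 4. Near-identical copies can share reads, and the labels do not state the treatment of such reads, so these counts cannot say from which copy the signal came.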
